A study of Rattus norvegicus with 2 samples.

Results

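Autophagy and lysosome genes were examined in rat hippocampal neural stem cells after sevoflurane, an inhaled general anaesthetic. The set is a list of 49 named genes, and its members are the probes on the array whose RefSeq messenger RNA accession belongs to one of them. In all, 43 of the 49 genes had such a probe, out of 13888 genes named on the array, and they were covered by 47 of its 24684 probes. Atg4b, Tfe3, Lamp1, Ctsz, Naglu and Npc1 had no matched probe and were not analysed here. Each of the 47 probes passed the scanner software's background call on both arrays, so none of the 43 genes was lost to the filter on dim probes, which kept 10028 genes in all.

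There were 2 one-colour (Cy3) arrays. The sevoflurane array held RNA of cells kept under 2.4% sevoflurane for 6 h, and the control array held RNA of cells kept under 0% sevoflurane for the same time. Both groups were Sprague-Dawley rat cells taken at postnatal day 3, grown in serum-free medium with bFGF at 37 °C and 5% CO2, used at passage 3 in log-phase growth, and per the labels returned to an ordinary incubator for 24 h after the gas. The labels are not uniform on whether RNA was taken after those 24 h or at 6 h, and they do not say whether an array holds a single culture or a pool. The design text speaks of 2 independent experiments, and whether these are the 2 arrays is not clear from it. With 1 array per group the differences below carry no p-value and no measure of variation between cultures, and scan day and treatment cannot be told apart.

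Autophagy delivers parts of the cytoplasm to the lysosome inside a double membrane, the autophagosome. The ULK1 and Beclin 1 complexes start that membrane, ATG8 proteins (the LC3 and GABARAP families) are coupled to its lipids, and receptors such as p62, the product of Sqstm1, bind cargo on one side and ATG8 on the other. In the lysosome, acid hydrolases break the cargo down. TFEB, which mTOR keeps out of the nucleus while nutrients are plentiful, switches on many of these genes through a DNA element called CLEAR. In neural stem cells lysosomes are known for their part in keeping quiescent cells quiescent.

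Levels are processed signals divided by the upper quartile of all probes on the same array, which was 359 for sevoflurane and 692 for the control. Differences are sevoflurane minus control in log2 units, and a gene is called higher or lower when the difference is at least 1 unit, or 2-fold. Levels of different genes are not set against each other, because probes differ in brightness. The scanner software's own error for a difference, taken for 1 spot on each array, was 0.20 log2 units for the median member and at most 0.33. It was nearly the same for most members, under 0.21 for 41 of the 43. It was not lowered for probes with several spots, and it leaves out any variation between cultures. For 237 genes with at least 2 measured probes, the gap between the differences of their probes had a median of 0.17. The 90th percentile of that gap was 1.53, above the 1 unit used for a call. Only 4 members had several probes, so for most members this gap could not be checked.

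Markers of some cell types differed between the arrays as well. Beside the counts below, 28.2% of all measured genes were higher and 11.2% lower. After the intensity-dependent correction described below, these shares were 15.0% and 15.5%. With so few genes, the stem cell, astrocyte and oligodendrocyte lineage counts were not far from the first shares. In bulk RNA, fewer cells of a type and less RNA per cell cannot be told apart. The labelled cell type was checked first: 11 of 12 neural stem cell markers were measured, and Vim, Fabp7 and Sox2 were measured on both arrays, with 3 of the 11 higher, 1 lower and a median of -0.45. Their summed level was 104 under sevoflurane and 82.9 in the control, and without the brightest, Vim, it was 30.5 under sevoflurane and 44.1 in the control. Lysosomal hydrolases are abundant in microglia. Of 16 measured microglia and macrophage markers, 2 were higher and 10 lower and the median was -1.996, with summed levels of 7.43 under sevoflurane and 21.1 in the control, and Itgam and Cx3cr1 were not well above background on either. Tmem119, 1 of the 2 higher, went against most of the list, at 2.75 under sevoflurane and 0.705 in the control. After the intensity-dependent correction 1 of these markers was higher and 10 were lower. On the same scale, neuronal markers had 0 of 9 higher and 5 lower with summed levels of 56.5 under sevoflurane and 134 in the control. After that correction 0 were higher and 7 lower. Red cell markers had 6 of 6 higher with summed levels of 142 under sevoflurane and 25.6 in the control. Of these sums, Hbb alone made up 117 and 23.4. Mesenchymal and pericyte markers had 3 of 7 higher and 0 lower, a median of 0.62, and summed levels of 67.3 under sevoflurane and 51.5 in the control. Most of these sums came from Col1a2 (37.1 under sevoflurane and 28.8 in the control) and Col3a1 (22.4 and 17.9). After the intensity-dependent correction described below, these genes were at -0.15 and -0.01, while 3 of the 7 were still higher and the median was 0.80. The 3 measured endothelial markers were all higher, with a median of 2.61 and summed levels of 0.436 under sevoflurane and 0.106 in the control. These genes are dim, and after the intensity-dependent correction their median was 0.90 and 1 of the 3 was higher. Astrocyte markers had 2 of 6 higher and 0 lower with a median of 0.14, and oligodendrocyte lineage markers 1 of 6 higher and 1 lower with a median of 0.63. The intensity-dependent correction brought the astrocyte median to 0.04. Of the 6 astrocyte genes, 0 then passed 2-fold upward and 2 passed it downward. The oligodendrocyte lineage median became -0.03, and its counts past 2-fold stayed the same. The part of these cells in the differences of Ctsc, Lgmn, Psap and the other members, and of the pump gene Atp6v0a1, was not tested.

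As a set, the members stayed near the middle of the array. Of 43 measured genes, 9 (20.9%) were at least 2-fold higher in the sevoflurane sample, where 28.2% of all measured genes were, and 1 (2.33%) was at least 2-fold lower, where 11.2% of all measured genes were. The median difference was -0.03 over the members and 0.27 over all measured genes. That background depends on brightness. With all genes divided by level into 10 equal groups, the median difference was 1.69 in the dimmest group, while in the 5 brighter groups, which held 36 of the members, it lay between -0.14 and 0.14. A comparison among the 5014 genes of these brighter groups was chosen after the values were seen. There, 6 of the 36 members were higher and 1 was lower, where 10.9% and 13.3% of all those genes were. The medians were -0.04 for members and -0.06 for all those genes. The lower and upper quartiles were -0.35 and 0.87 for members and -0.59 and 0.47 for all those genes. The members had no shared direction, with 21 above 0 and 22 below 0, and 10 of the 43 differences were smaller than the scanner software's error.

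**Figure D1:**
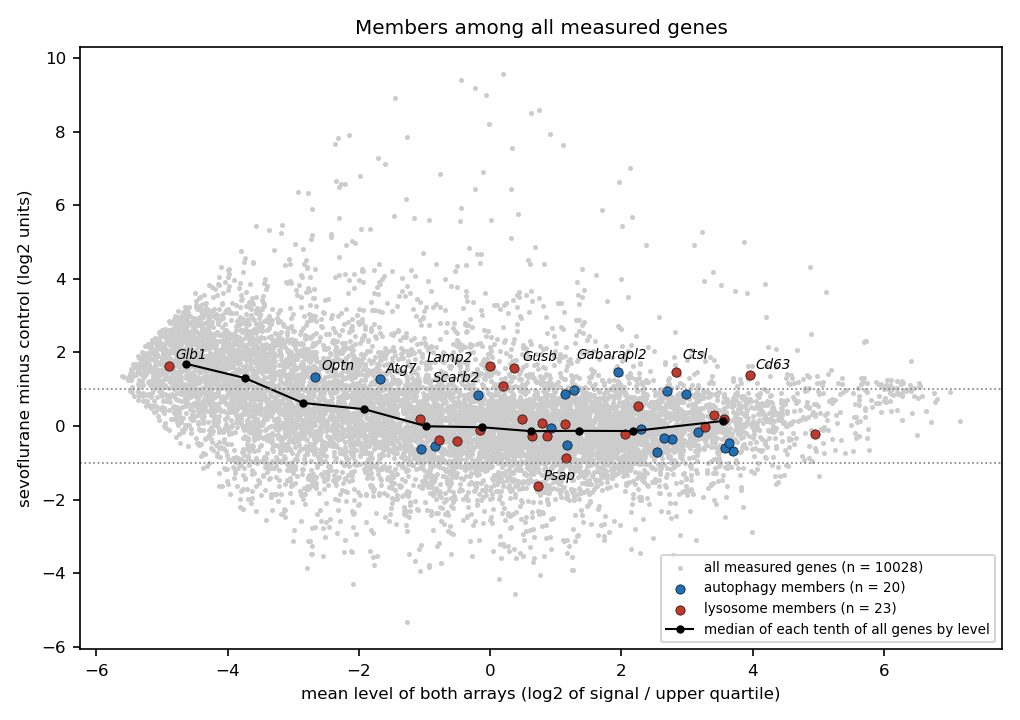
Difference between the sevoflurane and control arrays (log2 units) against the mean level of both arrays for 10028 measured genes (grey), with the 20 autophagy members in blue and the 23 lysosome members in red; the black line joins the medians of 10 equal groups of genes by level, and dotted lines mark 2-fold. Most members lie in the brighter groups, spread on both sides of the line, and the 10 members past 2-fold are named.

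Direction was checked under 7 scalings: the one used here, the same percentile or the median over probes well above background on both arrays, quantile normalization, an intensity-dependent correction, normexp background correction and the authors' deposited values. The 7 are not independent checks, since all read the same 2 arrays. Taking the percentile or the median over measured probes moves every difference of the first scaling by a constant. For the members, deposited differences lay close to quantile-normalized ones, such as -1.61 in both for Psap. The difference was positive in all 7 for 15 of the 43 members, negative in all 7 for 18 and of mixed sign for 10, where 40.3% and 31.3% of all measured genes were positive and negative in all 7. Gabarapl2, Lamp2, Cd63, Ctsl and Gusb were at least 2-fold higher in all 7, and Psap was at least 2-fold lower in all 7, where 12.3% and 6.85% of all measured genes were. After the intensity-dependent correction, 9 members were higher and 1 lower, where 15.0% and 15.5% of all measured genes were. Only 6 of these 9 were among the 9 named by the first scaling: Atg7, Optn and Glb1 left the group, and Gabarap, Wipi1 and Wipi2 entered it. After quantile normalization 7 were higher and 1 lower, where 13.6% and 19.6% of all measured genes were, and the authors' deposited table gave 7 and 1, where 13.6% and 19.2% were. With normexp 8 were higher and 1 lower (all genes 23.1% and 8.45%), and with the percentile taken over measured probes 11 and 1 (30.9% and 9.49%). With the median over measured probes 8 were higher and 2 lower (24.3% and 14.7%). Keeping every probe of a gene by its mean left 9 and 1 (28.1% and 11.2%), and dropping the filter on dim probes left 9 and 1 (46.1% and 8.69%), as did keeping spots marked as outliers (28.2% and 11.2%). Scaling by the median of all probes, many of which are dim, lowers every difference by the same amount (a shift of -1.10), so that 0 members were higher and 24 lower, where 10.5% and 43.5% of all measured genes were. It is kept apart from the 7.

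**Figure D2:**
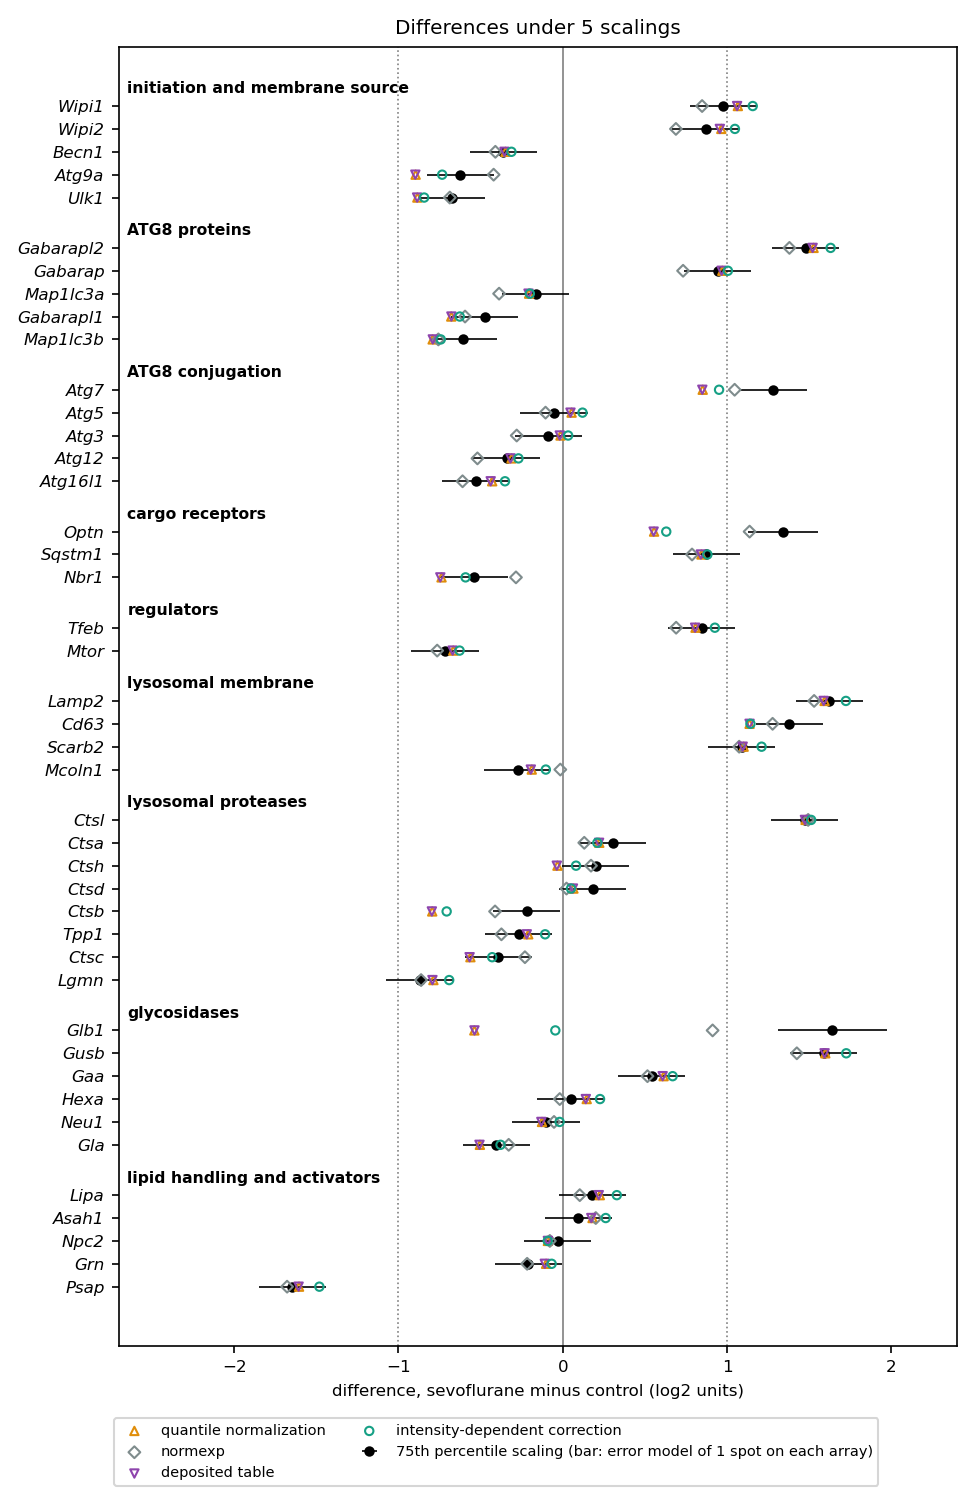
Difference between sevoflurane and control (log2 units) for each of the 43 members, ordered by role, under 5 of the scalings; black points are the values used in the text, with bars for the scanner software's error for the spots of both arrays. Open symbols lie close to the black points for most members, and several lie well to the left of them for the dim genes Glb1, Optn and Atg7 and for the bright gene Ctsb.

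Genes that start the autophagosome split into higher and lower members, with 0 of 5 past 2-fold. Wipi1, whose product binds phosphatidylinositol 3-phosphate on the forming membrane, was at 3.41 under sevoflurane and 1.73 in the control, a difference of 0.98. Wipi2, which recruits the conjugation machinery to the same lipid, was at 2.97 under sevoflurane and 1.63 in the control, a difference of 0.87. Both sat just under the 2-fold line, and both passed it after the intensity-dependent correction, at 1.16 and 1.05. Ulk1, the kinase that receives the starvation signal, was at 10.2 under sevoflurane and 16.3 in the control, a difference of -0.68. Atg9a, a membrane protein of the vesicles that seed the autophagosome, was at 0.390 under sevoflurane and 0.6002 in the control, a difference of -0.62. Becn1, the Beclin 1 gene, was measured by probes for 2 accessions, which differed by -0.36 and -0.44. The WIPI genes were thus higher in the sevoflurane sample and the genes of the upstream kinase, lipid kinase and vesicle steps lower, each of these signs holding in all 7 scalings.

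The ATG8 family also divided, and not by its 2 branches. Gabarapl2 (GATE-16) was at 6.44 under sevoflurane and 2.31 in the control, a difference of 1.48 or 2.79-fold. Gabarap was at 8.998 under sevoflurane and 4.68 in the control, a difference of 0.94. The third GABARAP gene went the other way: Gabarapl1 was at 10.5 under sevoflurane and 14.6 in the control, a difference of -0.48. Among the LC3 genes, Map1lc3b, whose lipid-bound product is the usual marker of autophagosomes, was at 9.65 under sevoflurane and 14.7 in the control, a difference of -0.61. Map1lc3a was at 8.48 under sevoflurane and 9.51 in the control, a difference of -0.16 that lies within the scanner software's error. Each of the 5 genes kept its sign in all 7 scalings.

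Of the genes that attach ATG8 to lipid, 1 of 5 measured was at least 2-fold higher and 0 were lower. Atg7, the E1-like enzyme that activates both ubiquitin-like proteins of the pathway, was at 0.485 under sevoflurane and 0.199 in the control, a difference of 1.28. Its level was in group 4 of 10, counted from the dimmest, where the median gene differed by 0.45, and after the intensity-dependent correction it was at 0.95. Atg16l1, which places the conjugation complex on the membrane, was at 1.88 under sevoflurane and 2.72 in the control, a difference of -0.53, and Atg12, the ubiquitin-like protein joined to ATG5, was at 5.55 under sevoflurane and 7.03 in the control, a difference of -0.34. Atg5, which joins ATG12 in that complex, and the E2-like enzyme gene Atg3 differed by -0.05 and -0.09, below the scanner software's error and with signs that change between scalings.

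Among the cargo receptors, Sqstm1 was at 10.7 under sevoflurane and 5.83 in the control, a difference of 0.87. A second probe, for another Sqstm1 accession, was at 6.33 under sevoflurane and 3.21 in the control, a difference of 0.98. Both p62 probes stood just under 2-fold, the second being at 1.11 after the intensity-dependent correction. By its first probe, the gene kept a positive sign in all 7 scalings, from 0.68 to 0.996. Optn, the optineurin gene, whose product links ubiquitin-marked mitochondria and bacteria to ATG8, was at 0.251 under sevoflurane and 0.0993 in the control, a difference of 1.34. Optn is dim, and it was at 0.63 after the intensity-dependent correction and 0.56 after quantile normalization. Nbr1, a receptor built like p62, was lower, at 0.464 under sevoflurane and 0.674 in the control, a difference of -0.54.

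The 2 measured regulators differed in opposite directions. Tfeb was at 1.17 under sevoflurane and 0.652 in the control, a difference of 0.85, and between 0.65 and 0.97 over the 7 scalings. Mtor, the kinase that holds TFEB and ULK1 in check, was at 4.53 under sevoflurane and 7.44 in the control, a difference of -0.72, and between -0.91 and -0.59 over the 7 scalings. Neither reached 2-fold, and messenger RNA levels say nothing of the phosphorylation or the nuclear entry of TFEB.

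**Figure D3:**
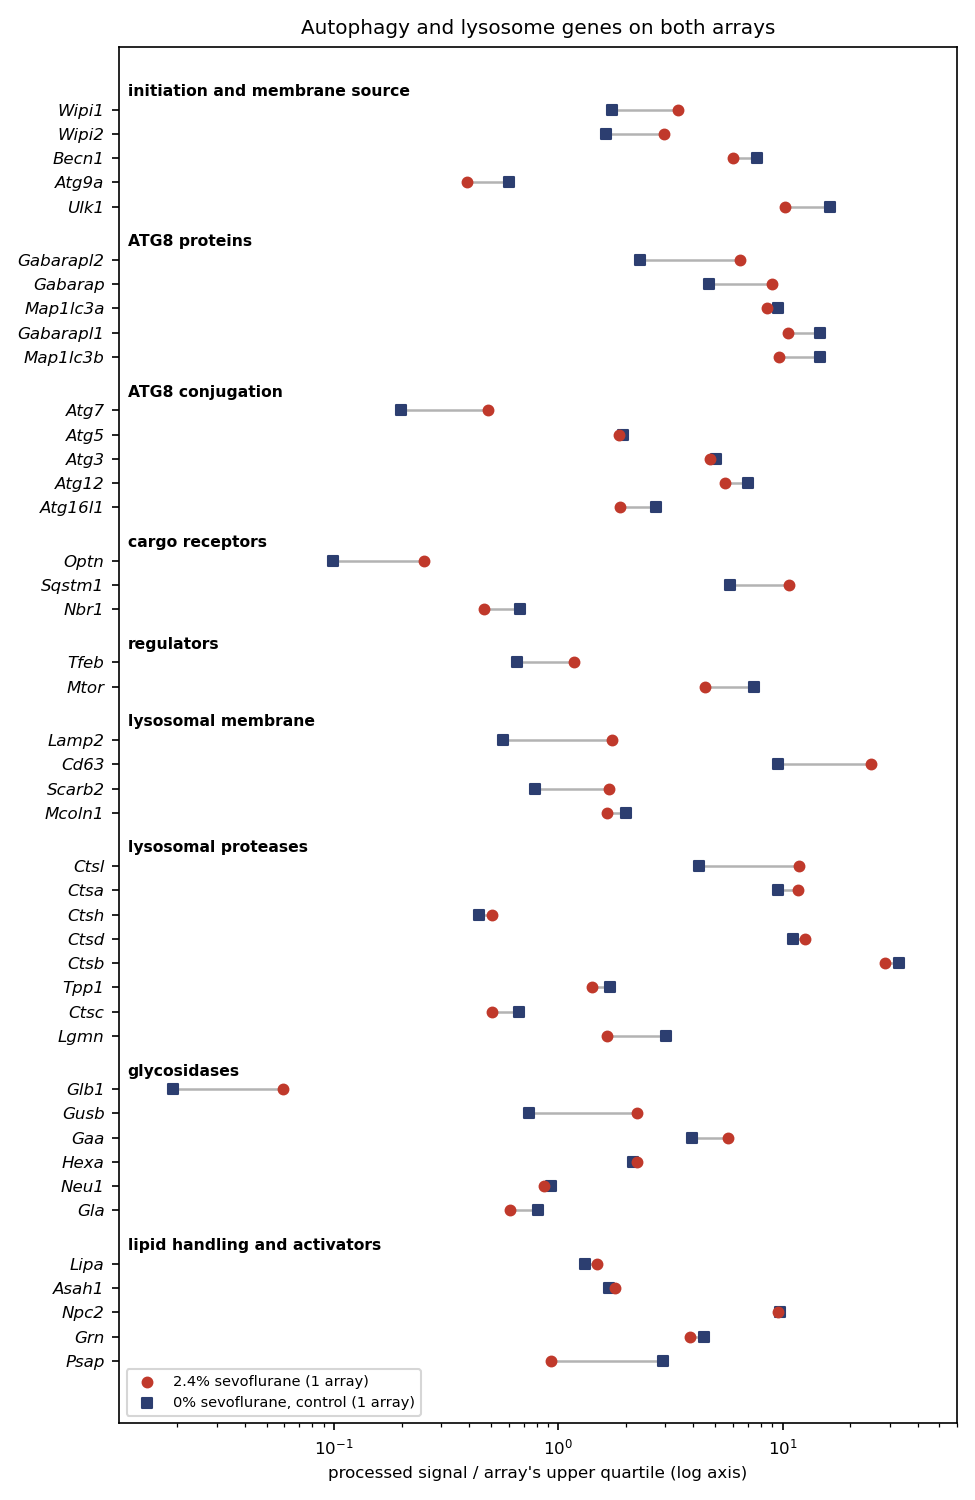
Processed signal divided by the array's upper quartile (log axis) for the 43 members, grouped by role; red circles are the sevoflurane array and blue squares the control array, 1 array each, joined by a line whose length is the fold. Circles lie clearly to the right for Gabarapl2, Lamp2, Cd63, Ctsl and Gusb and to the left for Psap.

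Lysosomal membrane genes were the role with the highest median, 1.23 over 4 genes, against 0.27 over all measured genes, with 3 of the 4 at least 2-fold higher, where 28.2% of all measured genes were, and 10.9% of the brighter ones, among which all 4 lie. Lamp2, which lines the lysosome and serves in chaperone-mediated autophagy, was at 1.74 under sevoflurane and 0.566 in the control, a difference of 1.62 or 3.08-fold. Cd63, a tetraspanin of late endosomes, lysosomes and exosomes, was at 24.9 under sevoflurane and 9.59 in the control, a difference of 1.38. Scarb2 (LIMP-2), the receptor that carries glucocerebrosidase to the lysosome, was at 1.67 under sevoflurane and 0.787 in the control, a difference of 1.09. Scarb2 sat just above the 2-fold line and was below it, at 0.89, when arrays were scaled by the median of probes well above background. Mcoln1, the lysosomal calcium channel that feeds back on TFEB, differed the other way, at 1.65 under sevoflurane and 1.997 in the control, a difference of -0.27.

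The lysosomal proteases differed in both directions: of 8 measured genes 1 was at least 2-fold higher and 0 were at least 2-fold lower, with a median of -0.02. Ctsl, the cysteine protease cathepsin L, was at 11.8 under sevoflurane and 4.26 in the control, a difference of 1.47 or 2.78-fold. The aspartic protease gene Ctsd was at 12.6 under sevoflurane and 11.1 in the control, a difference of 0.18, and Ctsb, the cathepsin B gene, at 28.5 under sevoflurane and 33.2 in the control, a difference of -0.22. Ctsb was at -0.71 after the intensity-dependent correction and -0.79 after quantile normalization. Ctsl thus stood above Ctsd and Ctsb by more than 1 log2 unit. The cathepsin gene Ctsk, which is not a member, was at 1.39, close to Ctsl. Lgmn, the asparagine-specific protease legumain that matures cathepsins, was at 1.65 under sevoflurane and 3.01 in the control, a difference of -0.87, and was past 2-fold in 1 of the 7 scalings, at -1.06. Ctsc, which activates serine proteases of immune cells, was at 0.508 under sevoflurane and 0.666 in the control, a difference of -0.39. The remaining 3 were close to even, with Ctsa, the protective protein of lysosomal glycosidases, at 0.30, the aminopeptidase gene Ctsh at 0.20 and the peptidase gene Tpp1 at -0.27.

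Of the glycosidases, 2 of 6 measured genes were at least 2-fold higher, a share close to the 28.2% of all measured genes, and 1 of those rests on a dim probe. Gusb, beta-glucuronidase, was read by a probe with 10 spots on each array and was at 2.23 under sevoflurane and 0.743 in the control, a difference of 1.59 or 3.01-fold. The SD between its spots was 0.056 log2 units under sevoflurane and 0.041 in the control, and a second probe with 1 spot gave a difference of 1.85. Glb1, beta-galactosidase, had processed signals of only 21.3 under sevoflurane and 13.2 in the control. Its difference of 1.64 is close to the 1.69 of the median gene in the dimmest level group, where it lies, and it was -0.05 after the intensity-dependent correction and -0.54 after quantile normalization, so no direction is given for it. Gaa, the glycogen-degrading alpha-glucosidase, was at 5.72 under sevoflurane and 3.93 in the control, a difference of 0.54. Gla, the alpha-galactosidase of Fabry disease, was lower, at 0.612 under sevoflurane and 0.809 in the control, a difference of -0.40. Hexa, a subunit of beta-hexosaminidase, and the sialidase gene Neu1 differed by 0.05 and -0.10, with signs that change between scalings.

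Genes of lysosomal lipid handling were near even except for Psap. Psap, which encodes prosaposin, the precursor of 4 saposins that present sphingolipids to their hydrolases, was at 0.932 under sevoflurane and 2.92 in the control, a difference of -1.65. It was the single member at least 2-fold lower, and it lay between -1.84 and -1.48 over the 7 scalings. Grn, the progranulin gene, whose product travels to the lysosome with prosaposin, was measured by probes for 2 accessions, which differed by -0.21 and -0.11. Npc2, which hands cholesterol to NPC1, was at 9.59 under sevoflurane and 9.79 in the control, a difference of -0.03. The acid lipase gene Lipa and the acid ceramidase gene Asah1 differed by 0.18 and 0.09, both within the scanner software's error.

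Rat promoters were set beside these differences because TFEB acts through CLEAR elements and because p62 and NRF2 (Nfe2l2) are known to be linked. RefSeq sequences of assembly GRCr8, from 250 bases before to 50 after the start of each gene, were at hand for 42 of the 49 genes and for 36 of the 43 measured ones. On either strand, the full CLEAR palindrome of 10 bases, which adds 1 base to each end of the core TCACGTGA, was in 0 of the 42 and in 0.233% of all 33469 promoters in that table. The core itself was in 4 of the 42 (9.52%) and in 0.777% of all promoters. The 4 were Atg3, Ctsd, Mcoln1 and Lamp1. The E-box CACGTG, which lies within both longer motifs, was in 8 of the 42 (19.0%) and in 6.42% of all, and the antioxidant response element TGACNNNGC was in 11 of the 42 (26.2%) and in 12.1% of all. Sqstm1 was among the 42 and held none of the 4 motifs in its 300 bases. The shares of all promoters are over every entry of that table, whether or not its gene was measured. TFEB is known to act on many genes of this list, and the shares come from sequence alone, so they say nothing of these arrays. A match is a description of these letters and not a bound site, and the lack of one says only that the letters are not in this stretch.

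Stretches of 60 bases from upstream of the start are shown for the 7 measured members with an E-box there, with the E-box in capitals, because they let the letters be read beside the differences just given.
Atg3 (chr11:69159281-69159340, minus strand): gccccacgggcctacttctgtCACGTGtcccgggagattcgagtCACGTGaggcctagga
Atg5 (chr20:49380775-49380834, plus strand): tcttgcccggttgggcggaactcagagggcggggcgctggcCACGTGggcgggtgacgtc
Cd63 (chr7:1921927-1921986, plus strand): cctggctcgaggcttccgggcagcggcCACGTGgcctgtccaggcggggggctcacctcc
Ctsd (chr1:206968822-206968881, minus strand): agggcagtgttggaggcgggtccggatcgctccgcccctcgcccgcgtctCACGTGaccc
Gaa (chr10:105028261-105028320, plus strand): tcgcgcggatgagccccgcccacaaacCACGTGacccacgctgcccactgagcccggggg
Glb1 (chr8:122963591-122963650, plus strand): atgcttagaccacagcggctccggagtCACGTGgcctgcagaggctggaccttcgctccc
Mcoln1 (chr12:6358198-6358257, plus strand): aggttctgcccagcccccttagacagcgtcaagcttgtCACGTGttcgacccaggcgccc
The 3 measured genes with the longer core, Atg3, Ctsd and Mcoln1, differed by -0.09, 0.18 and -0.27, all under 2-fold. The core of Mcoln1 begins at base 4, counting the first transcribed base as 1, and so lies outside the stretch shown. Ctsd had a further upstream E-box, beginning at base -157, which also lies outside its stretch. Of the 9 members higher in the scaling used here, 2 (Cd63 and Glb1) had an E-box in their 300 bases and 0 had the core. No direction is given above for Glb1, and with Optn and Atg7 it leaves the 9 after the intensity-dependent correction.

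Antioxidant response elements before the start are shown in the same way for Ctsl, Gabarap and Tpp1, the 3 measured members in which one lies wholly upstream, with the element in capitals as it reads on the strand of the gene.
Ctsl (chr17:769992-770051, plus strand): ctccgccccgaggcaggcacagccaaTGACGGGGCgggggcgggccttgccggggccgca
Gabarap (chr10:55213260-55213319, plus strand): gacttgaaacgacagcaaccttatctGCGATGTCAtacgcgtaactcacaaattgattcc
Tpp1 (chr1:169515996-169516055, minus strand): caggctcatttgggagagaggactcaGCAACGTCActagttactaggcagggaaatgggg
These 3 differed by 1.47, 0.94 and -0.27. The other 5 measured members with the element differed by 0.30 (Ctsa), 0.18 (Ctsd), -0.03 (Npc2), -0.39 (Ctsc) and -0.61 (Map1lc3b). Of the 9 members higher in the scaling used here, Ctsl was the 1 with this element in its 300 bases. It had 2 there, of which the stretch holds 1.

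Other genes of the pathway were taken from lists that do not overlap the members, and their counts stand beside the same 28.2% higher and 11.2% lower of all measured genes. The proton pump that acidifies the lysosome, the V-ATPase, had 1 of 12 measured subunit genes at least 2-fold higher and 2 lower, with a median of -0.15. Atp6v0a1, its membrane subunit in neurons, was at 2.46 under sevoflurane and 9.36 in the control, a difference of -1.93, Atp6v1b2 was at -1.17 and Atp6v0e1 at 1.06. Further hydrolases, transporters and sorting receptors had 3 of 24 higher and 2 lower, with a median of -0.16, and the intensity-dependent correction left 1 higher and 5 lower. Their largest differences were in Ctss, the cathepsin of microglia and macrophages, at -3.54, the sorting receptor gene Sort1 at -2.13, the dim sulfatase gene Arsa at 1.59 and the collagen-degrading cathepsin gene Ctsk at 1.39. Arsa was at 0.33 after the intensity-dependent correction.

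Further autophagy machinery had 1 of 16 higher, 3 lower and a median of -0.51. With normexp 1 was higher and 1 lower, and the median was -0.02. The intensity-dependent correction left 0 higher and 5 lower with a median of -0.65, and quantile normalization 0 and 6 with a median of -0.76. Tmem41b, a lipid scramblase of the forming membrane, was at -1.37 and Atg14, the Beclin 1 partner that directs the lipid kinase to autophagy, at -1.19, while Uvrag, at -1.13, and Atg10, at 1.21, were dim and changed sign between scalings. Receptors of selective autophagy and mitophagy had 0 of 12 higher, 1 lower and a median of -0.24. The endoplasmic reticulum receptor gene Retreg1 was at -1.47, but it is dim and lay between -3.16 and -0.20 over the 7 scalings. The mitophagy receptor gene Fundc1 was at 0.94 and the kinase gene Tbk1 at -0.91. Fundc1 was past 2-fold after the intensity-dependent correction, at 1.12. Fusion genes had 4 of 11 higher and 1 lower with a median of 0.71. With the intensity-dependent correction 2 were higher and the median was -0.07, after quantile normalization 1 was higher and the median was -0.46, and with normexp 0 were higher. The dim genes Vps11 and Stx17 were at 1.91 and 1.56, and at 0.13 and -0.07 after that correction. Plekhm1, an adaptor between autophagosome and lysosome, was at 1.15 and the SNARE gene Snap29 at -1.14.

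Genes of mTORC1 and its lysosomal sensors had 3 of 18 higher and 0 lower, with a median of 0.07, and 1 of the 18 was higher after the intensity-dependent correction. Sesn2, a leucine sensor that restrains mTORC1 and responds to stress, was at 0.303 under sevoflurane and 0.0510 in the control, a difference of 2.57, and 1.71 after that correction. The arginine sensor gene Castor1 was at 1.53 and at 0.99 after it, and Tsc1, a brake on mTORC1, at 1.67 and -0.0038. Ddit4, a stress-induced inhibitor of mTORC1, was at 0.77. Of 7 measured transcription factor genes tied to the programme, 5 were higher, 0 were lower and the median was 2.60. After the intensity-dependent correction 4 were higher, where 15.0% of all measured genes were, and the median was 1.18, and after quantile normalization it was 1.21. Cebpb was at 3.50, Nfe2l2 at 2.70 (5.37 under sevoflurane and 0.827 in the control), the stress factor gene Ddit3 at 2.68 and Foxo3, a known activator of autophagy genes, at 2.60. Of these, Foxo3 is dim on the control array and was at 1.18 after the intensity-dependent correction.

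**Figure D4:**
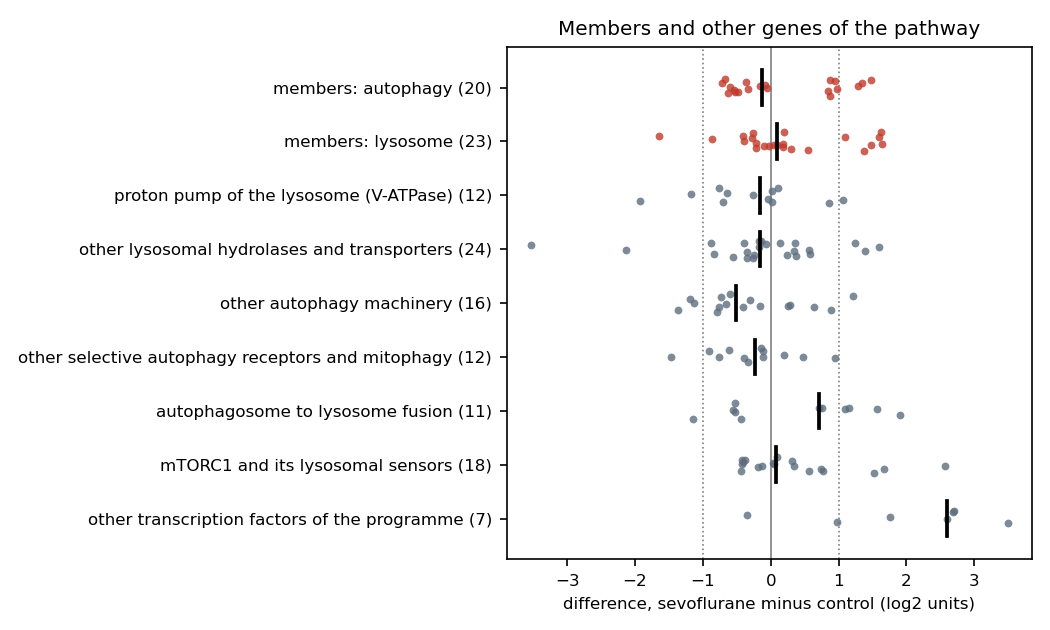
Difference between sevoflurane and control (log2 units) for the members in red and for the other pathway genes in grey, 1 point per measured gene, with the number of genes in brackets, a black bar for each list's median and dotted lines at 2-fold. Transcription factor genes lie to the right, with a median of 2.60, which the intensity-dependent correction brought to 1.18, and the other medians lie between -0.51 and 0.71.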

How the data were processed

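The members, roles, pathway lists and marker lists were chosen with earlier results of these data known. The deposited scanner output gives a linear intensity per spot. Agilent Feature Extraction 11.0.1.1 subtracted the background, per the file headers; arrays were not yet scaled to each other. The authors also deposited a table of log2 values made by an unnamed method. Its columns correlated with the scanner values at 0.991 (sevoflurane) and 0.993 (control) over 24431 probes, with medians of 5.62 and 5.62, and its differences at 0.968 with quantile-normalized ones. Its centring remains unknown. The direction of every difference is sevoflurane minus control, 1 array each.

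Control spots and spots marked as outliers (521 and 580 of 42136) were left out. Processed signals were taken to log2, spots of a probe averaged and the 75th percentile of each array subtracted. A measured probe was one with the software's well-above-background call on both arrays, by the majority of spots (16047 of 24629 usable probes). No spot was saturated. RefSeq accessions named 14274 of 15323 messenger RNA probes through a gene table of GRCr8; the array design refers to rn4. A gene was its brightest measured probe. The number of arrays limits the precision, and no test was possible. Normexp (limma 3.58.1 in R 4.3.3, offset 50) used median spot signals in place of the mean signals planned. The scaling code was tested on simulated data. The report names all members, up to 4 genes of each pathway list by the size of the difference and up to 3 bright markers of a cell type; the genes set beside the promoter motifs were named after their values were seen. The result of 1 gene of the mitophagy list is not reported here, and that list was counted without it.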

Additional observations from a re-analysis of the deposited data

How the results depend on the processing

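No paired analysis was possible because each group has 1 array. The counts of higher and lower members and their median were recomputed under 9 alternatives and 1 chosen after seeing the data. Under median scaling over all probes, 0 members were higher and 24 lower and the median difference was -1.13, since that scaling shifts every gene by -1.10. Of the 43 members, 13 then changed sign, 1 of them past 2-fold before, Scarb2, at -0.0073. Also among the 13 were Sqstm1 at -0.22, Wipi1 at -0.12, Wipi2 at -0.23, Gabarap at -0.15 and Tfeb at -0.25. Under median scaling over probes well above background on both arrays, the alternative chosen later, 2 members were lower (Psap and Lgmn) and the median was -0.22. Under the other alternatives the count of higher members was between 7 and 11, the count of lower members was 1, and the median lay between -0.04 and 0.09. Glb1 changed sign, to -0.54 with quantile normalization, to -0.045 with the intensity-dependent correction and to -0.54 in the table the authors deposited; the cause was not tested. Averaging all probes of a gene, dropping the filter on dim probes or keeping spots marked as outliers moved none of the 43 members by more than the scanner software's error. Glb1, Optn and Atg7 were the dimmest members, and Ctsb, in the brightest level group, also moved, to -0.79 with quantile normalization; the cause was not tested.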

Other observations

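The 20 measured autophagy members left a gap in the middle of their range, noticed after the values were seen. Of these genes, 8 lay above 0, from Tfeb at 0.85 to Gabarapl2 at 1.48, and 12 lay below 0, from Mtor at -0.72 to Atg5 at -0.05, with 0 in between. After the intensity-dependent correction Atg5 was at 0.12, Atg3 at 0.03 and Optn at 0.63, so the gap was narrower there. Nearby lists did not show it: of the lysosome members, Gaa at 0.54 and Ctsa at 0.30 lay in the gap. Of the further autophagy machinery, Sh3glb1 at 0.64 and Wdr45b at 0.28 lay in it too. The share of all measured genes in that interval was not counted. With 1 array per group the gap was not tested.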
